A study of Mus musculus with 16 samples.

Results

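The constitutive proteasome genes examined here are the 46 genes whose symbols begin with Psma, Psmb, Psmc, Psmd, Psme, Psmf or Psmg followed by a digit and which are listed in the deposited normalized table, leaving out the immunoproteasome subunits Psmb8, Psmb9 and Psmb10. They are 46 of 24421 genes in the count table, and all 46 passed the filter on low counts that left 11978 genes for testing. They were measured by bulk RNA sequencing of conventional type 1 dendritic cells (cDC1s), a dendritic cell type that cross-presents antigen to CD8 T cells, sorted from spleens of untreated C57BL6 mice. The 16 libraries form 4 groups of 4: mature and immature cDC1s from Xbp1flIre1fl mice, and mature and immature cDC1s from Xbp1fl mice. Both lines carry floxed alleles of Xbp1, a transcription factor gene of the endoplasmic reticulum stress response, and the Xbp1flIre1fl line also carries floxed Ire1, the sensor that activates it. Per the design text no allele was deleted, so that all mice were functionally wild type. The labels give neither the age of the mice nor the sort gates, and they do not say whether libraries came from separate animals, so p-values reflect only how far these libraries differ, which may be technical.

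The proteasome is the barrel-shaped protease that degrades proteins marked with ubiquitin. Its 20S core is a stack of alpha and beta rings with the catalytic sites inside, and the 19S cap recognises ubiquitin, unfolds the substrate with a ring of ATPases and removes the ubiquitin with its lid. Dedicated chaperones build both parts. In antigen-presenting cells the proteasome produces most peptides for MHC class I, and dendritic cells carry the immunoproteasome subunits and the activator PA28 in large amounts.

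Mature libraries held 13948232 to 16572576 counts and immature libraries 15083053 to 17000763. All 10 markers of mature dendritic cells were higher in mature cells, with a summed level of 9372 to 22650 CPM (counts per 1000000 counts) in mature libraries and 349 to 715 CPM in immature ones. The 10 cDC1 markers summed to 5713 to 8107 CPM in mature and 8517 to 9618 CPM in immature libraries, with 2 of 10 called higher and 6 lower, and none was at 0 in any library. The 2 mature Xbp1flIre1fl libraries with the lowest Ccr7 were replicates 2 and 4 at 6574 and 4988 CPM, where the other 6 mature libraries held 8001 to 13420 CPM. Markers of other cells differed between stages too. The B cell markers, of which 10 of 10 were called higher, summed to 296 to 950 CPM in mature and 99.0 to 152 CPM in immature libraries. The macrophage markers, of which 8 of 11 were called higher, summed to 595 to 1244 CPM in mature and 175 to 702 CPM in immature libraries. The T cell markers, of which 6 of 9 were called higher, summed to 61.0 to 111 CPM in mature and 34.6 to 55.8 CPM in immature libraries. Of the 5 plasma cell markers 3 were called higher and 1 lower, with sums of 184 to 691 CPM in mature and 180 to 353 CPM in immature libraries. No gene of these lists was at 0 in every library of a stage. Their part in the results on proteasome genes was not tested, and in sorted bulk samples fewer cells of a type and less RNA per cell cannot be told apart.

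Upstream sequences are shown for 7 members that mark the patterns described below: Psmb5 and Psmb6, catalytic subunits of the 20S core, Psmd4, Psmd10 and Psmd11, which were higher in mature cells, Psmg1, which was lower, and Psme2, which had the greatest change. They are the 250 bases before a RefSeq transcription start (GRCm38.p6), 5′ to 3′ on the gene's strand: Psmb5 at chr14:54617996-54618245 on the minus strand, Psmb6 at chr11:70525107-70525356 on the plus strand, Psmd4 at chr3:95042615-95042864 on the minus strand, Psmd10 at chrX:140956712-140956961 on the minus strand, Psmd11 at chr11:80428365-80428614 on the plus strand, Psmg1 at chr16:95990961-95991210 on the minus strand and Psme2 at chr14:55591102-55591351 on the minus strand. Capitals mark matches on either strand to the antioxidant response element core (TGACNNNGC, the letters bound by the Nfe2l1 and Nfe2l2 transcription factors), to the CCAAT box, or to the core of the interferon-stimulated response element (GAAA, any 2 bases, GAAA).
Psmb5: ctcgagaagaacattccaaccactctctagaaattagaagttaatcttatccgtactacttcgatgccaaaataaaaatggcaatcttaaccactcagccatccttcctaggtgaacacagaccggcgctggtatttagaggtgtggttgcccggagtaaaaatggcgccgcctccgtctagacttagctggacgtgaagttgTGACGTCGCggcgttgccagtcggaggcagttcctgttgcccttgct
Psmb6: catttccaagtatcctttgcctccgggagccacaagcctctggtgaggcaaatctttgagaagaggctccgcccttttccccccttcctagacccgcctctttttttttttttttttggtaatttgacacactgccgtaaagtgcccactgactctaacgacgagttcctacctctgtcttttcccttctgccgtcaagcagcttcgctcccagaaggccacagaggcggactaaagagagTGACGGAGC
Psmd4: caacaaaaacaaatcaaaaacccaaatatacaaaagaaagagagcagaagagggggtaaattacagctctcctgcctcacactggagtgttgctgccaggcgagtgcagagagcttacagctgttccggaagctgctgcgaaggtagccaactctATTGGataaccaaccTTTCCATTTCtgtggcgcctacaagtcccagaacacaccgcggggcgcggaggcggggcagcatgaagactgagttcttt
Psmd10: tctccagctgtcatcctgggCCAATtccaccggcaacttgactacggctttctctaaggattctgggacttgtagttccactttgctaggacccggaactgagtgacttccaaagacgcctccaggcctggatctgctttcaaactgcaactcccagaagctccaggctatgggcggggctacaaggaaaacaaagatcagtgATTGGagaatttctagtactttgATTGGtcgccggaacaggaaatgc
Psmd11: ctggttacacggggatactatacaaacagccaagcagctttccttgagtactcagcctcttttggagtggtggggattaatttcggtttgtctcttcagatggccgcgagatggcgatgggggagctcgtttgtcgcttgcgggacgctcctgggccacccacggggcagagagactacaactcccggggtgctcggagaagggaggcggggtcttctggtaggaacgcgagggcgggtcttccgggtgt
Psmg1: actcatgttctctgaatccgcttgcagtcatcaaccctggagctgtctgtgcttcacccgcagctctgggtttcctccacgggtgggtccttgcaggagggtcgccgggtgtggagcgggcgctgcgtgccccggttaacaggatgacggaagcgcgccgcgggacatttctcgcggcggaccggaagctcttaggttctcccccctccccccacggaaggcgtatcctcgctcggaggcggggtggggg
Psme2: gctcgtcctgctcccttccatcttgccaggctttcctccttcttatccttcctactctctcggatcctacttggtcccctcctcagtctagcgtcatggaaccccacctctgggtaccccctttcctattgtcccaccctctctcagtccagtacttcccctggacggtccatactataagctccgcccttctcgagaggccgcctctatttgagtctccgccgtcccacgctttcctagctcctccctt
Of the 46 members 38 have an entry in the RefSeq promoter table, and Psma8, Psmb1, Psmb2, Psmb7, Psmc3, Psmd3, Psmd7 and Psmg2 do not. In the 300 bases from 250 before to 50 after the start, 6 of 38 members held the antioxidant core (15.8%, exact 95% interval 6.02 to 31.3%), against 14% of 27025 genes. These were Psmb5, Psmb6, Psmc6, Psmd9, Psmd12 and Psme4. The match starts 47 bases before the start of Psmb5 and 9 bases before that of Psmb6. A CCAAT box was in 13 of 38 members (34.2%, 19.6 to 51.4%) against 41.1% of all genes. By role, it was in 5 of 7 alpha ring genes and in 0 of 3 chaperone genes of the 20S core. The interferon core, added after the data had been seen, was in 5 of 38 members (13.2%, 4.41 to 28.1%) against 3.99% of all genes, namely Psmd4, Psmd9, Psmb3, Psmg4 and Psme1. In the 150 bases before the start, the shares were 7.89% against 7.74%, 26.3% against 27.7% and 2.63% against 1.85% for the 3 motifs in the same order. The members' shares of the first 2 motifs were thus near those of all genes in both windows.

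Mature against immature cells is the main comparison, which asks how gene expression changes when cDC1s mature in the absence of infection. Of 17 genes of the 19S base and lid 12 were higher in mature cells and 2 lower, by at most 0.53 on the log2 scale, while of 14 genes of the 20S core 2 were higher and 1 lower. Psmg1, Psmg2 and Psmg3, chaperones of the 20S core, were lower by 0.75, 0.63 and 0.55 on the log2 scale, and Psme2, a subunit of the PA28 activator, was 1.07 higher on that scale. In all, 17 of 46 members were called higher and 10 lower (edgeR quasi-likelihood test, Benjamini-Hochberg adjusted p under 0.05 over all genes), which is 37.0% and 21.7%, where 33.4% and 34.2% of all tested genes were called. Counting both directions, 27 of 46 members (58.7%) were called where 67.6% of all genes were. The median log2 fold change was 0.07 over the members and -0.01 over all genes. Of the 46 members 5 changed by over 1.5-fold and 1 by over 2-fold, where 3750 and 1667 of 11978 genes did.

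**Figure D1:**
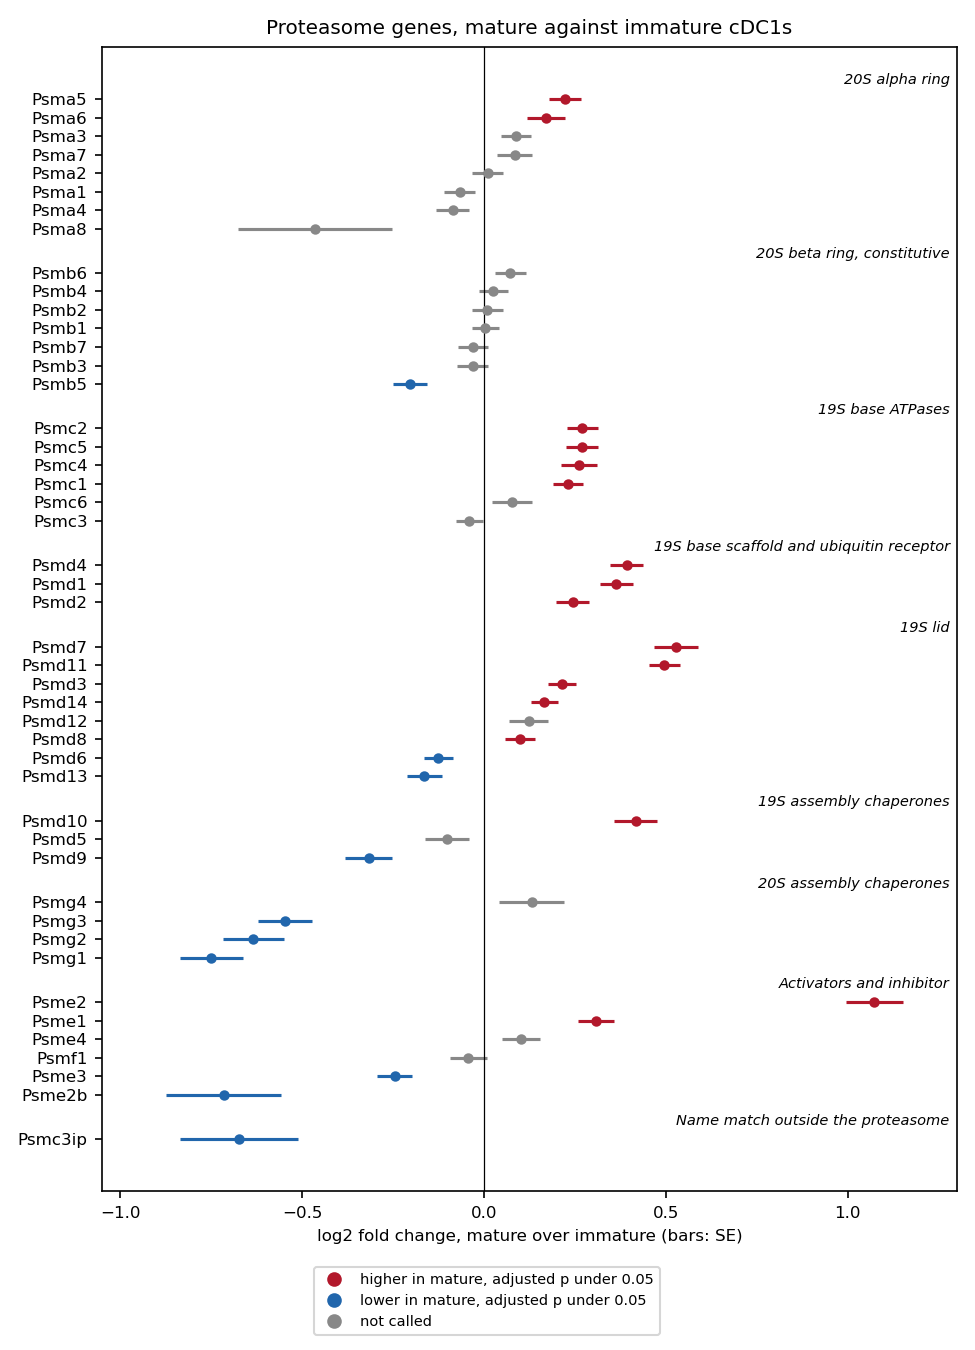
Log2 fold change of each of the 46 genes, mature over immature (x axis, mean of both genotypes, n = 8 libraries each), by role down the page; bars are standard errors and colours give the call at an adjusted p under 0.05. Most 19S base and lid genes lie right of 0, the 20S core genes lie near 0, and Psmg1, Psmg2 and Psmg3 lie at -0.55 to -0.75.

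These directions depend on how the libraries are scaled, since mature and immature cells differ in many genes. With trimmed-mean (TMM) scaling, used throughout, the median over all genes was -0.01. It was -0.13 with upper quartile scaling and -0.23 with library sizes only, where 14 members were called higher and 22 lower, and 6 higher and 28 lower. Higher calls were thus 63.0% of the members' calls with TMM, 38.9% with upper quartile scaling and 17.6% with library sizes only, where the same shares over all genes were 49.4%, 38% and 30.8%. Of the 17 cap genes 10 were called higher and 3 lower with upper quartile scaling, and 4 higher and 5 lower with library sizes only. Of the 14 core genes 1 was called higher and 9 lower, and 0 higher and 12 lower. Over all 11978 genes 3213 were called higher and 5237 lower with upper quartile scaling, and 2716 and 6091 with library sizes only. A scaling moves the log2 fold changes of all genes by about the same amount, so a group's distance from the median of all genes is fixed by construction and says nothing of stability. The median of the 17 19S genes lay 0.24 above that of all genes, that of the 14 20S genes 0.02 above it, and that of Psmg1, Psmg2 and Psmg3 at -0.63 relative to it (log2). These chaperone genes were grouped after their values had been seen, and Psmg4 (0.13 with TMM, not called) was left out.

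**Figure D2:**
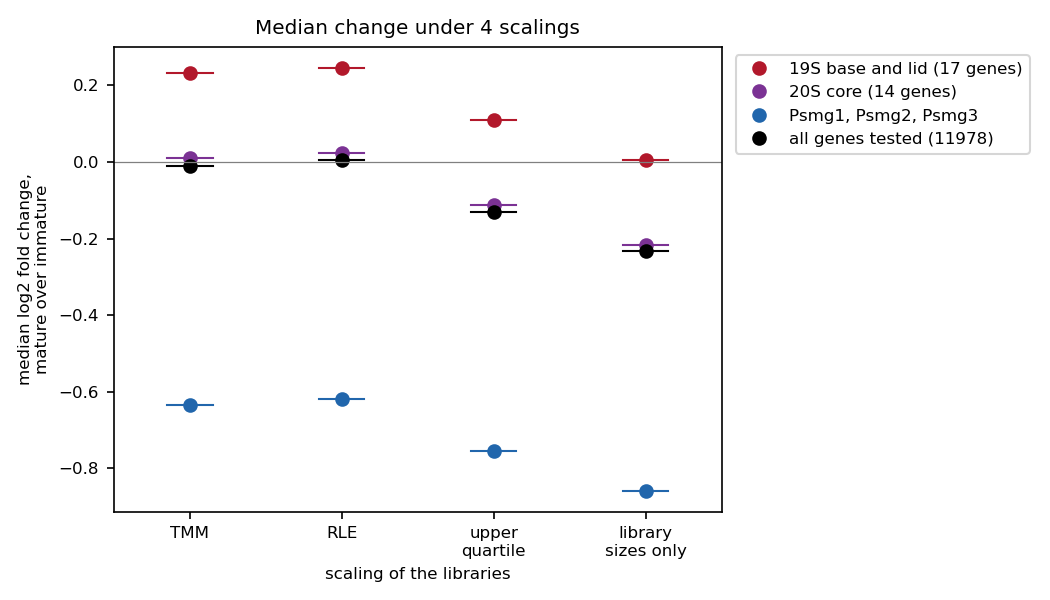
Median log2 fold change, mature over immature, of 19S base and lid genes, 20S core genes, the 3 chaperone genes and all genes tested (y axis) under 4 scalings of the libraries (x axis). The chaperone genes are Psmg1, Psmg2 and Psmg3, grouped after their values had been seen, without Psmg4. The median of all genes is -0.01 with TMM and -0.23 with library sizes only, and the other medians shift by about the same amount because a scaling moves all genes alike.

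A ratio within a library does not depend on the scaling. The summed CPM of 19S base and lid genes divided by that of the 20S core was 0.965 at the lowest, 1.03 at the median and 1.09 at the highest in mature libraries, against 0.881, 0.899 and 0.942 in immature libraries. Every mature library lay above every immature one. The means were 1.03 ± 0.042 in mature and 0.906 ± 0.022 in immature cells (SD, n = 8 each), and without the 2 mature libraries of lowest Ccr7 the mature mean was 1.04. Within genotypes the ratio was 1.03 ± 0.048 in mature and 0.906 ± 0.026 in immature Xbp1flIre1fl cells, and 1.03 ± 0.043 in mature and 0.906 ± 0.023 in immature Xbp1fl cells (n = 4 each). The members were chosen with results of these libraries known, so these ratios are given without a test. All 46 members together took 0.589 to 0.623% of the unscaled counts in mature libraries and 0.611 to 0.639% in immature ones, ranges that overlap. On the TMM scale they summed to 6028 to 6961 CPM in mature and 5669 to 5909 CPM in immature libraries, without overlap. The direction of this total thus depends on the scaling.

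**Figure D3:**
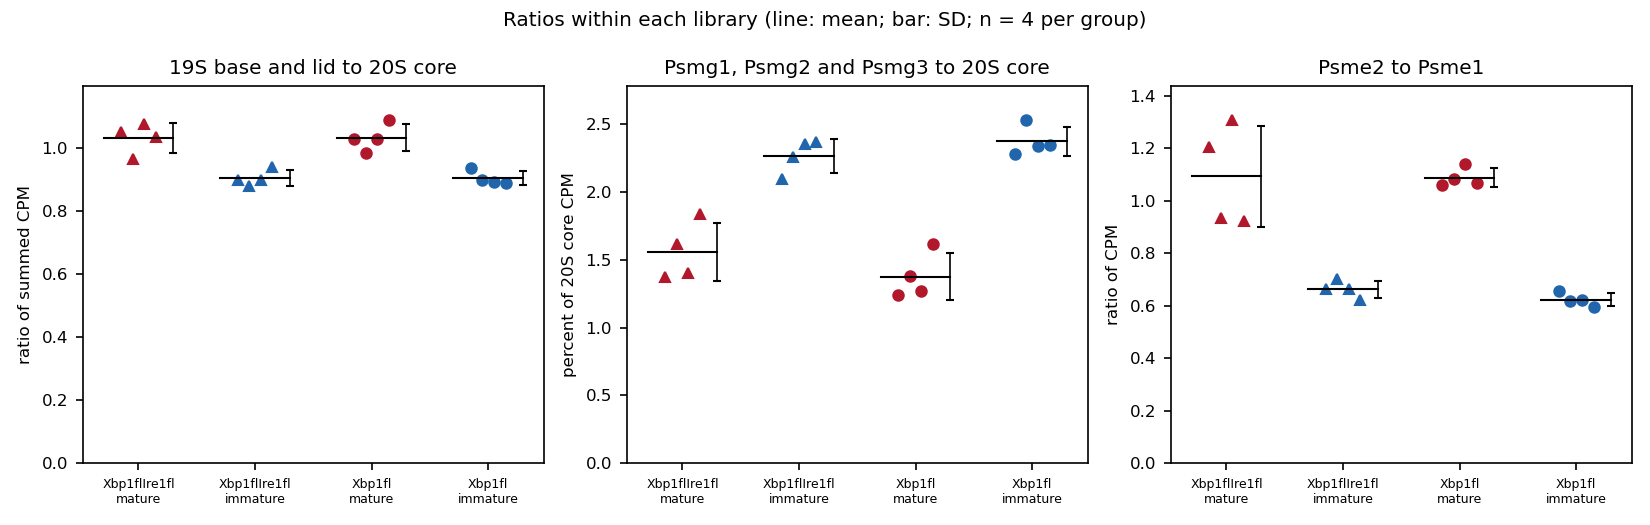
Ratios within each library: summed CPM of 19S base and lid over 20S core genes, Psmg1 to Psmg3 as a percent of the 20S core, and Psme2 over Psme1 (y axes from 0), for 4 groups of 4 libraries with mean lines and SD bars. Mature and immature libraries do not overlap in any of the 3 panels, with 19S to 20S ratios of 0.965 to 1.09 in the mature and 0.881 to 0.942 in the immature ones. Psmg1 to Psmg3 were grouped after their values had been seen, without Psmg4, so the gap in that panel follows from the choice.

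In the 20S core, few genes were called with TMM scaling. The alpha ring forms the gate of the barrel, and of its 8 genes Psma5 and Psma6 were higher by 0.22 ± 0.04 and 0.17 ± 0.05 (log2 fold change ± SE, adjusted p = 0.00024 and 0.0082), although neither was higher with library sizes only, at -0.0037 and -0.056, and Psma6 was not called with upper quartile scaling. Psma5 was 136, 147 and 161 CPM at the lowest, median and highest mature library, against 120, 127 and 132 CPM in immature libraries. All mature libraries lay above all immature ones for this gene. Psma1, Psma2, Psma3, Psma4 and Psma7 had log2 fold changes of -0.09 to 0.09 and were not called. Psma8, a testis-type alpha subunit, was at 1.36 to 4.81 CPM in mature and 2.30 to 6.17 CPM in immature libraries, and its log2 fold change of -0.46 ± 0.21 was not called (adjusted p = 0.059). With the same-numbered libraries of a genotype paired (the replicate block) Psma8 was called at -0.49 (adjusted p = 0.0079).

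The beta ring holds the catalytic sites. Psmb5, the chymotrypsin-like subunit, was 105, 112 and 123 CPM in mature libraries (lowest, median, highest), against 116, 131 and 137 CPM in immature libraries. The ranges overlap, and the log2 fold change was -0.20 ± 0.05 (adjusted p = 0.00079). Psmb6, the caspase-like subunit, was 132, 143 and 157 CPM in mature against 124, 139 and 141 CPM in immature libraries and was not called (0.07 ± 0.04, adjusted p = 0.15). Psmb7, the trypsin-like subunit, was 117, 122 and 134 CPM in mature against 117, 126 and 134 CPM in immature libraries and was not called (-0.03 ± 0.04, adjusted p = 0.53). The structural subunits Psmb1, Psmb2, Psmb3 and Psmb4 had log2 fold changes of -0.03 to 0.03 and were not called. With TMM scaling Psmb5 was thus the only beta ring gene called, and it kept its call under all alternatives tried. It was not alone under each of them: Psmb1, Psmb2, Psmb3, Psmb4 and Psmb7 were also called lower with upper quartile scaling. With library sizes only these genes and Psmb6 were called lower.

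Each immunoproteasome subunit takes the place of 1 constitutive catalytic subunit, so their ratio was tested within libraries. These genes too were listed with earlier results of these data known, so the p-values of the 3 ratios are not those of an independent test. Psmb8, which replaces Psmb5, was 842, 916 and 1047 CPM in mature libraries (lowest, median, highest), against 831, 872 and 906 CPM in immature ones, and was not called (0.11 ± 0.05, adjusted p = 0.071). It was called higher with RLE scaling (0.12) and lower with library sizes only (-0.12). The ratio of Psmb8 to Psmb5 averaged 8.31 ± 0.64 in mature and 6.72 ± 0.45 in immature libraries (SD, n = 8 each), 0.31 higher on the log2 scale (exact permutation test, two-sided, p = 0.000311, adjusted over 3 ratios 0.000932). The smallest p this design can give is 0.000155. Mature libraries ranged over 7.38 to 9.29 and immature ones over 6.29 to 7.56, which overlap slightly. Within Xbp1flIre1fl the ratio was 8.17 ± 0.62 in mature and 6.56 ± 0.43 in immature libraries, and within Xbp1fl 8.45 ± 0.72 and 6.87 ± 0.48 (n = 4 each, exact permutation p = 0.0286 in both, the smallest possible, and 0.0857 and 0.0429 after adjustment). With same-numbered libraries paired (exact sign-flip permutation), the ratio was higher in the mature library of 8 of 8 pairs (p = 0.00781, the smallest possible, adjusted 0.0117). Within 1 genotype 4 pairs cannot give a p below 0.125, so the within-Xbp1fl call was lost (adjusted p = 0.188 in each genotype).

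Psmb10, which replaces Psmb7, was 118, 132 and 146 CPM in mature against 109, 117 and 124 CPM in immature libraries and was called higher (0.19 ± 0.05, adjusted p = 0.0037), but not with upper quartile scaling (0.071) or library sizes only (-0.034). The ratio of Psmb10 to Psmb7 averaged 1.08 ± 0.096 in mature and 0.928 ± 0.048 in immature libraries, 0.22 higher on the log2 scale (exact permutation test, n = 8 each, p = 0.00109, adjusted 0.00163). Mature libraries ranged over 0.938 to 1.21 and immature ones over 0.858 to 1, which overlap. Within Xbp1flIre1fl the exact permutation p of this ratio was 0.0571 and within Xbp1fl 0.0286 (adjusted 0.0857 and 0.0429, n = 4 each). Paired, it was higher in 8 of 8 pairs (exact sign-flip permutation, adjusted p = 0.0117), and neither genotype alone passed (adjusted p = 0.188). Psmb9, which replaces Psmb6, was 490, 541 and 593 CPM in mature against 485, 528 and 558 CPM in immature libraries and was not called (0.04 ± 0.05, adjusted p = 0.50). The ratio of Psmb9 to Psmb6 averaged 3.78 ± 0.25 in mature and 3.86 ± 0.11 in immature libraries (exact permutation test, n = 8 each, adjusted p = 0.365). A difference of this ratio was therefore not detected.

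The 19S cap had most of the calls. Of its 6 base ATPases, which unfold the substrate, Psmc1, Psmc2, Psmc4 and Psmc5 were higher by 0.23 to 0.27 on the log2 scale, by 0.00 to 0.04 and not called with library sizes only, and Psmc3 and Psmc6 were not called at -0.04 and 0.08. Psmc2 was 120, 122 and 134 CPM in mature libraries (lowest, median, highest), against 98.8, 103 and 113 CPM in immature libraries. All mature libraries lay above all immature ones (log2 fold change 0.27 ± 0.04, adjusted p = 2.3e-05). Psmd1 and Psmd2, the scaffold that docks ubiquitin-binding shuttles, were higher by 0.36 ± 0.05 and 0.24 ± 0.05, where Psmd2 was not called with library sizes only (0.018). Psmd4, a ubiquitin receptor whose upstream sequence is printed above, was 145, 158 and 172 CPM in mature against 113, 120 and 127 CPM in immature libraries, again without overlap (0.39 ± 0.05, adjusted p = 7.1e-07).

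The lid carries the deubiquitinase Psmd14, which was 0.16 ± 0.04 higher in mature cells (log2, adjusted p = 0.0007), but -0.061 with library sizes only and not called with upper quartile scaling. Its partner Psmd7 and the structural subunit Psmd11 had the greatest changes of the cap, 0.53 ± 0.06 and 0.50 ± 0.04 (adjusted p = 5.3e-07 and 1.4e-08). Psmd7 was 96.3, 113 and 131 CPM in mature against 71.7, 79.3 and 83.9 CPM in immature libraries. Psmd11, a subunit that links lid and core, was 151, 160 and 173 CPM in mature against 108, 114 and 120 CPM in immature libraries. Neither gene had overlapping groups. Psmd3 was 0.21 ± 0.04 higher, and -0.011 with library sizes only.

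Psmd8 was at the margin of a call. Its log2 fold change was 0.10 ± 0.04 (adjusted p = 0.044), and leaving out 1 library moved its adjusted p between 0.018 and 0.099. With upper quartile scaling the gene turned to -0.024 and was not called. With library sizes only it was called lower (-0.13, edgeR adjusted p = 0.0056). Psmd12 was not called (0.12 ± 0.05, adjusted p = 0.052) but was with the replicate block (0.12, adjusted p = 0.039) and with DESeq2 (0.14, adjusted p = 0.028). The lid subunits Psmd6 and Psmd13 went the other way. Psmd13 was 98.4, 104 and 112 CPM in mature against 106, 117 and 131 CPM in immature libraries, with overlapping ranges (-0.16 ± 0.05, adjusted p = 0.005). Psmd6 was lower by 0.13 ± 0.04 on the log2 scale (adjusted p = 0.0085). Of the 17 cap genes 12 were thus higher where 33.4% of all genes were, and Psmc3, Psmc6 and Psmd12 were not called.

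**Figure D4:**
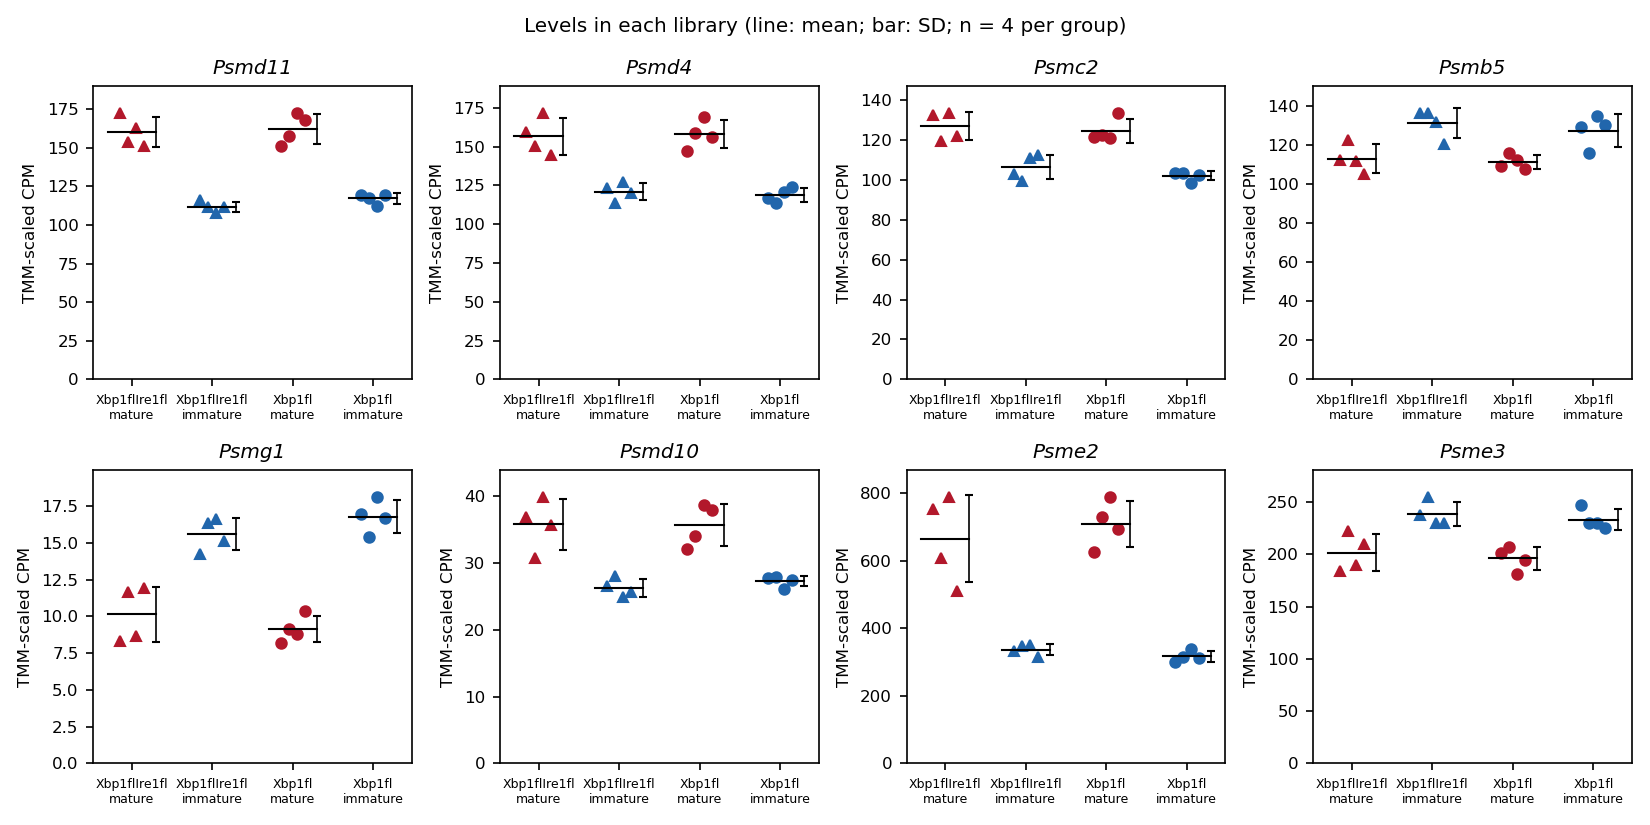
TMM-scaled CPM of 8 genes in each library (y axis from 0), in 4 groups of 4, mature in red and immature in blue, Xbp1flIre1fl as triangles and Xbp1fl as circles, with mean lines and SD bars. Psmd11, Psmd4, Psmc2, Psmd10 and Psme2 are higher and Psmg1 and Psme3 lower in every mature than in every immature library, while for Psmb5 the stages overlap.

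Of the 4 chaperone genes of the 20S core 0 were called higher and 3 lower, where 33.4% of all genes were higher and 34.2% lower. Of the 3 of the 19S base 1 was higher and 1 lower, shares near those of all genes. Psmg1 and Psmg2 form a pair that seeds the alpha ring, and Psmg3 and Psmg4 form another. Psmg1 was 8.22, 8.98 and 11.9 CPM in mature libraries (lowest, median, highest), against 14.3, 16.5 and 18.2 CPM in immature libraries. Its log2 fold change was -0.75 ± 0.09 (adjusted p = 7e-07), with no overlap between stages. Psmg2 was 10.98, 13.1 and 15.8 CPM in mature against 18.2, 21.5 and 22.8 CPM in immature libraries (-0.63 ± 0.08, adjusted p = 3.2e-06). Psmg3 was 9.22, 11.6 and 14.1 CPM in mature against 15.2, 16.9 and 20.03 CPM in immature libraries (-0.55 ± 0.07, adjusted p = 3.8e-06). Psmg4, the partner of Psmg3, was not called (0.13 ± 0.09, adjusted p = 0.21), with 18.5 ± 2.09 CPM in mature and 16.9 ± 2.05 CPM in immature cells.

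Psmg1, Psmg2 and Psmg3, grouped after their values had been seen, equalled 1.47 ± 0.20% of the summed 20S CPM in mature and 2.32 ± 0.12% in immature libraries (SD, n = 8 each). Mature libraries ranged over 1.24 to 1.84% and immature ones over 2.1 to 2.53%, without overlap. Without the 2 mature libraries of lowest Ccr7 the mature mean was 1.38%. Pomp, which acts after the Psmg genes in building the beta ring, was 237 ± 23.6 CPM in mature and 275 ± 13.6 CPM in immature cells (-0.21 ± 0.06, adjusted p = 0.0038).

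Among the chaperones of the 19S base, Psmd10, also known as gankyrin, was 30.7, 36.3 and 40.0 CPM in mature libraries, against 24.9, 27.0 and 28.0 CPM in immature ones, without overlap (0.42 ± 0.06, adjusted p = 7.6e-06). Psmd9 was 13.7, 15.5 and 16.6 CPM in mature against 16.7, 19.5 and 21.3 CPM in immature libraries, also without overlap (-0.32 ± 0.06, adjusted p = 0.0003). Psmd5 was not called (-0.10 ± 0.06, adjusted p = 0.14).

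Activators open the gate of the 20S core in place of the 19S cap. Psme1 and Psme2 encode the subunits of PA28, which is known to be induced by interferon gamma and to aid the making of MHC class I peptides. Psme2 was 511, 711 and 789 CPM in mature libraries (lowest, median, highest), against 300, 324 and 350 CPM in immature libraries. Its log2 fold change of 1.07 ± 0.08 (adjusted p = 1.5e-09) was the only one over 2-fold among the members. Psme1 was 553, 636 and 690 CPM in mature against 457, 507 and 546 CPM in immature libraries, without overlap (0.31 ± 0.05, adjusted p = 3.3e-05), and was not called with library sizes only (0.082). The partners thus changed by different amounts. The ratio of Psme2 to Psme1 was 1.09 ± 0.13 in mature and 0.644 ± 0.034 in immature libraries, and in the 2 mature libraries of lowest Ccr7 it was 0.936 and 0.923, above the highest immature value of 0.702.

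Psme2b, an intronless copy of Psme2 on chromosome 11, was 1.77 to 3.53 CPM in mature and 3.66 to 5.08 CPM in immature libraries (-0.72 ± 0.16, adjusted p = 0.00057). Over 794 aligned bases its GENCODE transcript is 99.4% identical to that of Psme2, and the read counter is not stated, so how reads were shared between the 2 genes is uncertain. Psme3, the nuclear activator PA28 gamma, was 181, 198 and 223 CPM in mature against 225, 230 and 255 CPM in immature libraries, without overlap (-0.25 ± 0.05, adjusted p = 0.00023). Psme4, the activator PA200, and Psmf1, which encodes the regulator PI31, were not called (0.10 ± 0.05 and -0.04 ± 0.05, adjusted p = 0.089 and 0.47). Psmc3ip carries a matching name but is a factor of meiotic recombination, not a proteasome subunit, and was 1.72 to 3.82 CPM in mature and 3.62 to 6.46 CPM in immature libraries (-0.67 ± 0.16, adjusted p = 0.0013).

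Of the 46 members, 13 had every mature library above every immature one and 7 had every one below, where 18% and 15% of all genes did. Here and above, overlap of single genes was judged on TMM-scaled CPM only and not under other scalings. Of the 13, Psma5, Psmc1, Psmc2, Psmc5, Psmd2, Psmd3 and Psme1 were not called with library sizes only, at -0.011 to 0.082 (log2). Psmd1, Psmd4, Psmd7, Psmd10, Psmd11 and Psme2 stayed called higher. Leaving out mature Xbp1flIre1fl replicates 2 and 4, which had the lowest Ccr7, 20 members were higher and 10 lower, where 4175 and 4275 of 12315 genes were. All 27 calls were kept with the same sign. In the replicate block, which pairs same-numbered libraries within a genotype, 18 members were higher and 11 lower, where 4099 and 4248 of 11978 genes were. The 27 calls were again kept.

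Levels per kilobase of transcript were compared across members, using the longest principal GENCODE transcript of each gene, which may not be the form expressed here. In mature cells the core genes without Psma8 ranged over 56.8 to 273 CPM per kilobase, and the cap genes over 29.0 to 129. The chaperones of the 20S core stood at 9.23 to 33.3 CPM per kilobase in mature and 15.5 to 30.4 in immature cells, and in mature cells Psmc6 at 29.0 was the only core or cap gene other than Psma8 below the highest of them, Psmg4. Psme2 and Psme1 had the highest levels of all members, 714 and 566 CPM per kilobase in mature and 339 and 457 in immature cells. Their order thus differed between the stages, in each of which the levels are means of 8 libraries.

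**Figure D5:**
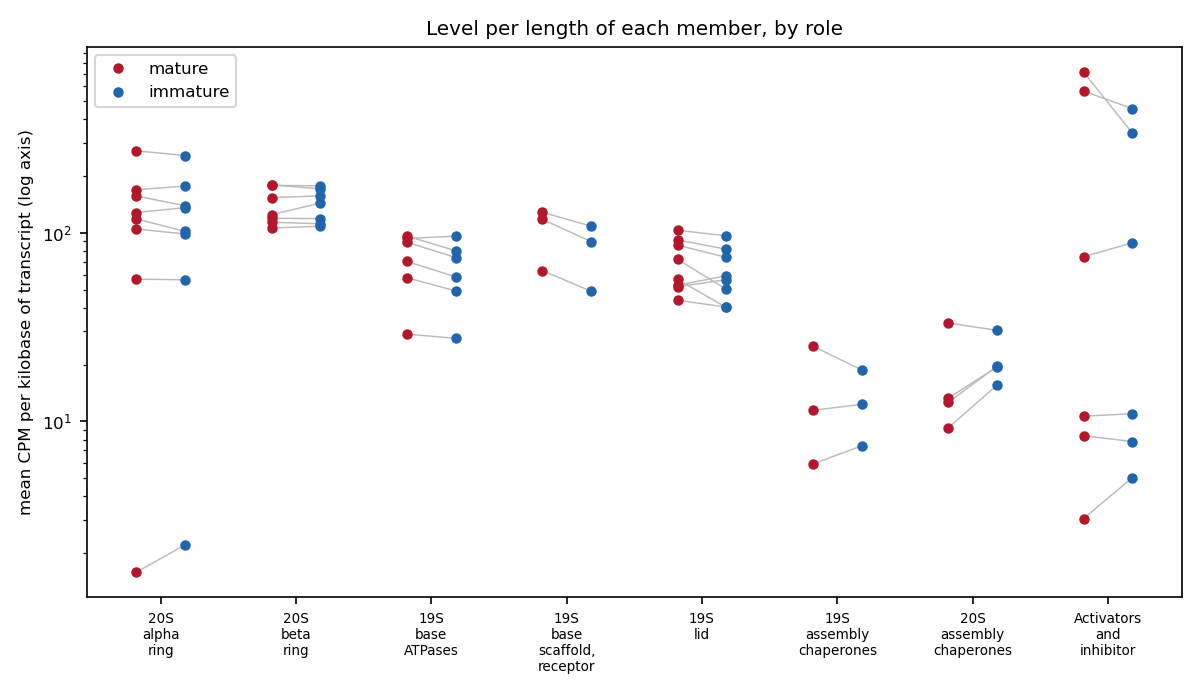
Mean CPM per kilobase of transcript (log axis) of each member in mature and immature cells, by role, with lines joining the same gene; Psmc3ip is not drawn. Psme1 and Psme2 are at the top with 566 and 714 in mature cells, and the assembly chaperones lie below nearly all core and cap genes.

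The same comparison was made in each genotype. Within Xbp1flIre1fl 15 members were higher and 9 lower, where 27.4% and 26.1% of all genes were called and 53.5% in either direction. Within Xbp1fl 16 were higher and 7 lower, where 28.4% and 28.3% of all genes were and 56.8% in either direction. The 15 members higher within Xbp1flIre1fl were all among the 16 higher within Xbp1fl, which held Psma6 in addition, and the 7 lower within Xbp1fl were all among the 9 lower within Xbp1flIre1fl, which held Psmd13 and Psmc3ip in addition. The log2 fold changes of Psmd11 were 0.52 within Xbp1flIre1fl and 0.47 within Xbp1fl, and those of Psmd4 0.37 and 0.41.

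The test of the difference between genotypes (interaction) called 0 of 46 members and 0% of all genes, by edgeR and by DESeq2, with 0 members and 325 of all genes at an unadjusted p under 0.05. The member with the lowest unadjusted p, 0.052, was Psmg3, with a difference of 0.31 in log2 fold change, Xbp1flIre1fl minus Xbp1fl. Between genotypes, 0 members were called in mature cells, where 0.0501% of all genes were higher and 0.0918% lower (0.142% in all), and 0 in immature cells, where 0.0584% were higher and 0.0751% lower (0.134% in all). DESeq2 also called 0 members in either. At an unadjusted p under 0.05 there was 1 member in each stage, Psma8, at -0.68 in mature and -0.77 in immature cells (Xbp1flIre1fl over Xbp1fl, adjusted p = 0.75 and 0.93). A missed threshold does not show that the lines are alike, and the members' differences between lines lay between -0.68 and 0.19 in mature and between -0.77 and 0.34 in immature cells.

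Other genes of the ubiquitin and proteasome system were counted from lists. Of 12 proteasome genes with other names 6 were higher in mature cells and 2 lower, where 33.4% and 34.2% of all genes were. Akirin2, which brings proteasomes into the nucleus, was 53.9 ± 7.73 CPM in mature and 29.5 ± 3.38 CPM in immature cells (0.87 ± 0.09, adjusted p = 1.8e-07). Uchl5, a deubiquitinase of the 19S cap, was 34.4 ± 2.40 CPM in mature and 46.0 ± 1.48 CPM in immature cells (-0.42 ± 0.05, adjusted p = 9.2e-07). Its docking site on the cap, Adrm1, went the other way at 0.44 ± 0.05 (adjusted p = 1.4e-06).

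Of 10 shuttle factors and p97 genes 4 were higher and 0 lower by edgeR, and the share higher, 40%, was near the 33.4% of all genes. Vcp, the p97 ATPase that extracts ubiquitinated proteins, had 1347 ± 150 CPM in mature and 761 ± 29.4 CPM in immature cells (0.82 ± 0.06, adjusted p = 2.4e-09). Of 8 regulators of proteasome genes 5 were higher and 1 lower. Nfe2l1, the transcription factor that raises proteasome gene expression when proteasomes are short, was 268, 350 and 439 CPM in mature libraries (lowest, median, highest), against 102, 110 and 124 CPM in immature libraries. Its groups were far apart, with a log2 fold change of 1.67 ± 0.10 (adjusted p = 3.5e-10). Nfe2l2, its relative in the response to oxidants, was 167, 314 and 350 CPM in mature against 85.6, 117 and 141 CPM in immature libraries (1.33 ± 0.14, adjusted p = 7.6e-07). Ddi2, the protease that activates the Nfe2l1 protein, was lower by 0.14 ± 0.05 on the log2 scale (adjusted p = 0.016). The named genes of these lists kept direction and call under the other scalings, but the counts did not: with library sizes only 4 were higher and 6 lower among the 12 proteasome genes with other names, 4 and 5 among the shuttle genes, and 5 and 3 among the regulators, where 2716 of 11978 genes were higher and 6091 lower.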

How the data were processed

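RNA of sorted splenic cDC1s was sequenced in 16 libraries, 4 per group. The authors deposited raw counts per gene symbol and a table of log2 expression values whose normalization is not given in the sources used here. Per the submitters' processing notes, FastQC 0.11.4, Trimmomatic 0.35, TopHat2 2.1.0, SAMtools 0.1.19, limma 3.42.2 and build mm10 were used; the read counter, annotation and strand setting are not given in the sources used here, so reads shared with near-identical or antisense genes may be split wrongly.

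Counts were fitted in R 4.3.3 with edgeR 4.0.16: filterByExpr left 11978 genes, libraries were scaled by TMM, and a robust quasi-likelihood model with 1 mean per group was tested by F-test with Benjamini-Hochberg adjustment over all genes (threshold 0.05). Standard errors are the absolute log2 fold change over the square root of F, and levels are TMM-scaled CPM. Subunit ratios were tested by exact permutation, and by exact sign-flip permutation of pairs, added after seeing the data. Alternatives were other scalings, no filter, no robust estimation, DESeq2 1.42.0, limma 3.58.1 on the deposited log2 table, a replicate block, leaving out each library, and leaving out the 2 libraries of lowest Ccr7, chosen after seeing the data. On simulated data with 11848 genes and known changes the test recovered 6 of 48 genes changed by 0.25 (log2), 31 of 49 at 0.5, 44 of 49 at 1 and 49 of 50 at 2, with 2 false calls. Only these few genes were changed in the simulation, whereas 67.6% of genes were called between stages in the real data. Its adjusted threshold was therefore stricter, and these shares do not give the recovery in the real data. A count of 3 equals 0.176 to 0.215 CPM, and such floors and the motif intervals cover counting error only. Pairs of libraries within groups differed by more than sampling noise (chi-square per degree of freedom 5.41 to 61), and each was counted as 1 sample.

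Same-numbered mature and immature libraries of a genotype deviated together (r = 0.246 to 0.505 over 7789 genes, and 4 of 4 in each genotype correlated best with their own number), which is where the pairing in the replicate block comes from. Coordinates and transcript lengths are from GENCODE M21 and promoters from RefSeq, both GRCm38. The members and gene lists were chosen with earlier results of these data known. Genes were named by a rule: in each role, the most significant member upward and downward, the catalytic subunits, Psme1 and Psme2, and likewise 1 gene per direction of the other lists of proteasome and ubiquitin system genes, with Nfe2l1 and Nfe2l2, while cell type marker lists are given by sums and counts. Psmd7, Psmg2, Psmg3, Psme2b, Psma8, Psmd6, Psmd8, Psmd12, Pomp and Adrm1 were given values after theirs were seen. The list of ubiquitin genes and activating enzymes is not reported here.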

Additional observations from a re-analysis of the deposited data

Results flagged for a closer look

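Among 80 groups of 4 libraries examined for 1 library far from the rest, 3 were marked, where chance marks about 1 in 20. Psmc2 was 134 CPM in Xbp1fl mature replicate 4, against 121 to 123 CPM in the other 3 libraries of that group. Psmb6 was 135 CPM in Xbp1flIre1fl immature replicate 1, where the others were at 139 CPM. The ratio of 19S to 20S summed CPM was 0.939 in Xbp1fl immature replicate 1, against 0.891 to 0.899 in the others of its group.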

How the results depend on the processing

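With library sizes only, 6 members were higher and 28 lower between stages, where 2716 and 6091 of 11978 genes were. Within Xbp1fl 5 members were higher and 24 lower with that scaling, and within Xbp1flIre1fl 5 and 24. With upper quartile scaling 22 members were lower between stages, where 5237 of 11978 genes were. With it 15 members were lower within Xbp1fl, and 6 were higher and 15 lower within Xbp1flIre1fl. Counts of all genes within a genotype under these scalings are not given here, so these member counts have no share beside them. Of the 27 calls, 24 were kept with upper quartile scaling and 1 had the opposite sign, and 16 were kept with library sizes only and 5 had the opposite sign. Log2 fold changes that turned with upper quartile scaling were Psma2 -0.11, Psma3 -0.0334, Psma7 -0.0376, Psmb1 -0.12, Psmb2 -0.11, Psmb4 -0.10, Psmb6 -0.0493, Psmc6 -0.0449, Psmd8 -0.0235 and Psme4 -0.0201. With library sizes only they were Psma2 -0.22, Psma3 -0.14, Psma5 -0.00372, Psma6 -0.0557, Psma7 -0.14, Psmb1 -0.22, Psmb2 -0.22, Psmb4 -0.20, Psmb6 -0.15, Psmc6 -0.15, Psmd12 -0.10, Psmd14 -0.0607, Psmd3 -0.0111, Psmd8 -0.13, Psmg4 -0.10 and Psme4 -0.12. These shifts follow the all-gene median, which moved to -0.13 and -0.23. Without a filter Psma2, Psmb1 and Psmb2, none of them called, were -0.00833, -0.0144 and -0.0092, and with 1 library left out they ranged over -0.00458 to 0.0345, -0.008 to 0.0196 and -0.00432 to 0.0349. Other settings (RLE scaling, no filter, no robust estimation, DESeq2, limma on the deposited table, the replicate block) gave 16 to 19 members higher and 10 to 11 lower. With 1 library left out 16 to 20 members were higher and 10 to 11 lower, where 3823 to 4084 and 3942 to 4182 of all genes were. Between stages the replicate block changed no member's call beyond those of Psma8 (-0.489) and Psmd12 (0.121). Of the 27 calls that of Psmd8 was lost without a filter and in leave-one-out fits. Genes called between genotypes in mature cells numbered 17, and 36 with DESeq2 and 15 to 30 with 1 library left out, 30 without Xbp1flIre1fl mature replicate 2. In immature cells they numbered 16, and 40 with DESeq2. The cause of these differences was not tested. Ratio calls for Psmb8 to Psmb5 and Psmb10 to Psmb7 kept their side with each library left out and with the replicate block over both genotypes. The scaling limits statements on direction, and depth limits Psma8, Psme2b and Psmc3ip, all under 7 CPM.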
